A study of Mus musculus with 6 samples.

Results

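The cells described here are the deeply sequenced smooth muscle cell (SMC) lineage cells of the Marfan and the control mouse aortic root, 9563 of the 60200 barcodes in the study. They are barcodes of the 2 lineage-positive libraries with at least 4000 unique molecular identifiers (UMIs), at least 500 genes, at most 10% of UMIs from mitochondrially encoded genes and at least 1 UMI of Myh11, the smooth muscle myosin heavy chain. These limits kept 4523 of 22905 Marfan barcodes (19.7%) and 5040 of 8218 control barcodes (61.3%). Every kept cell was then thinned at random to 4000 UMIs, so that a gene had the same chance of being seen in either library.

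The study measured single-cell RNA from the aortic root, with part of the ascending aorta, of male mice aged 24 weeks. The Marfan animals carried 1 copy of the missense allele C1041G of Fbn1, which encodes the microfibril protein fibrillin-1, and were labelled wild type for Klf4. The control animals were labelled as littermate controls without that allele, also with the control Klf4 genotype. In both groups the SMC lineage carried a tdTomato trace, whose driver the labels do not name, and lineage-positive cells were sorted on fluorescence after digestion with Liberase and elastase. Aortas of 4 animals were combined in each library with no tag per animal, so there was 1 sample per group. Another lineage-positive library, labelled as Marfan with floxed Klf4, is set beside them.

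Smooth muscle cells of the aortic wall normally hold a contractile programme of actin, myosin and their regulators, and build the elastic lamellae with elastin and fibrillin microfibrils. In Marfan syndrome the microfibrils are weakened and the aortic root dilates. In disease, SMCs can lower their contractile genes and take on genes of matrix, adhesion and cartilage, a state usually called modulation.

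Because each group was 1 library, no test across animals was possible, and every difference below is between those 2 libraries. Levels are CPM, a gene's thinned UMIs scaled to the same total in each library. Ratios are log2 of CPM, Marfan over control, with an exact conditional binomial 95% interval in brackets. Shares of cells with a UMI have exact Clopper-Pearson intervals in the underlying results. All such intervals cover counting error only, not the spread between animals. The interval of a ratio treats each UMI as a separate draw, so it also leaves out the spread between cells.

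Before thinning, the kept cells had medians of 12611 UMIs in the Marfan library and 11838 in the control library, with 4.09% and 4.50% mitochondrial UMIs. After thinning, Marfan and control medians were 1649 and 1679 genes per cell, and 14.5% and 16.9% UMIs of ribosomal protein genes. The Marfan library held 8944 barcodes under 1000 UMIs (39.0%) against 576 (7.01%) in the control library, and none of these entered. The libraries shared 47 barcodes, 8 of them among kept cells. TDT, the feature whose symbol matches the reporter, had 438 CPM in Marfan cells against 349 in control cells. Fbn1 stood at 129 and 99.3 CPM, and its counts do not separate the mutant from the normal allele. All 6 fixed SMC markers were present, and Myh11 was the gene used to choose the cells, so its share is no result.

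Markers of other cell types were below SMC markers, which summed to 48179 and 45003 CPM, in both libraries. Summed over 9 fibroblast markers the level was 734 CPM in Marfan and 703 in control cells, over 5 pericyte markers 155 and 231, and over 7 macrophage or monocyte markers 19.3 and 12.2. Endothelial markers summed to 9.29 and 15.3 CPM and erythroid markers to 35.7 and 2.93. The 5 valve interstitial or chondrocyte markers summed to 238 and 109 CPM, with Cytl1 at 107 and 31.5, and cardiomyocyte markers to 800.1 and 958. That last sum was almost all Tnnt2, cardiac troponin T, at 797 and 951 CPM, and of the other 5 cardiomyocyte markers the highest was Actc1 at 1.38 and 5.46. Neutrophil markers summed to 0.332 CPM in Marfan cells, with 2 of 4 at 0, and all 4 were at 0 in control cells. Lymphocyte, mesothelial, Schwann and adipocyte markers each summed to under 5 CPM in both.

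Most genes lay close between the libraries. Of 9466 genes with at least 5 CPM in either library, 8863 (93.6%) lay within 1.5-fold, and the median log2 ratio was -0.05. A total of 341 genes were at least 1.5-fold higher in Marfan cells, 3.6% of those measured, and 262 were at least 1.5-fold lower, 2.77%. Which side held more genes depended on the scaling: with mitochondrial and ribosomal genes out of the total 338 were higher and 372 lower, and with median-of-ratios scaling 402 and 211. The differences past 4-fold lay almost all on one side, with 44 genes higher and 1 lower, the potassium channel gene Kcnj15. Counted by cells in place of UMIs, 50 genes (0.528%) were detected in at least 10 percentage points more Marfan cells and 45 (0.475%) in at least 10 points fewer. The 341 higher genes held 5.91% of Marfan UMIs and 2.75% of control UMIs, and the 262 lower genes 0.590% and 1.03%. The calls were not all stable to the draw: thinning with another random seed returned 290 of the 341 higher and 172 of the 262 lower genes.

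**Figure D1:**
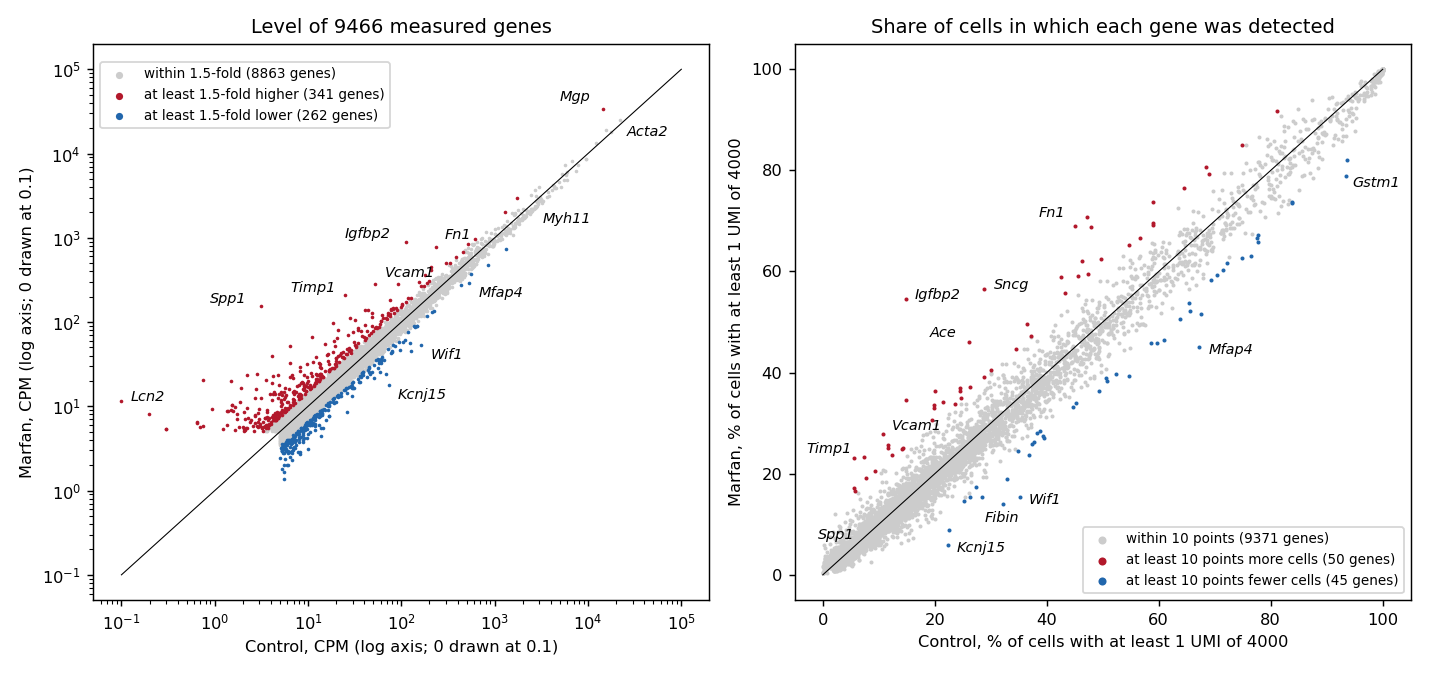
Left, CPM of each of 9466 measured genes in control (x) and Marfan (y) cells on log axes, red for genes at least 1.5-fold higher and blue for at least 1.5-fold lower. Right, the percentage of thinned cells with at least 1 UMI of each gene, red and blue for differences of at least 10 points. Igfbp2 was in 14.8% of control and 54.5% of Marfan cells and Mfap4 in 67.2% and 45.0%, whereas Spp1, with a larger ratio than Igfbp2, was in only 0.417% and 5.37%.

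Timp1, Igfbp2 and Fbln2 had the largest ratios among genes of at least 20 CPM seen in at least 10% of cells. That ranking left out markers of other cell types and some gene classes, listed with the processing below. Igfbp2, a secreted binding protein of insulin-like growth factors (chromosome 1, 72824503 to 72852474, mm10), reached 901 CPM in the Marfan library against 112 in the control library, a log2 ratio of 3.01 [2.95, 3.08]. It had a UMI in 54.5% of Marfan and 14.8% of control cells. Barcodes under 1000 UMIs, which were not kept, had Igfbp2 at 1057 CPM in the Marfan library and 104 in the control library, close to the kept cells of each. The part of free RNA in these shares was not tested. As a comparison cell type, 672 endothelial cells positive for Pecam1 and Cdh5 were taken from the lineage-negative libraries and thinned alike, from a median of 8047.5 UMIs. Igfbp2 was found in 0.744% of them, but free RNA can differ between libraries, so their shares do not bound it in the SMC libraries. Timp1, a secreted inhibitor of metalloproteinases (chromosome X, 20870166 to 20874735), stood at 208 and 24.8 CPM and in 23.3% and 7.40% of cells. Fbln2, the matrix glycoprotein fibulin-2, had a log2 ratio of 3.01 [2.75, 3.29]. Igfbp2 and Timp1 thus differed both in level and in the share of cells, and Timp1 was in 26.9% of the endothelial cells.

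Vcam1, Fn1, Col8a1, Cd34 and Cdh11 were also among the 15 largest ratios. Vcam1, an endothelial and SMC adhesion molecule for leukocytes, was at 283 CPM in the Marfan and 52.7 in the control library, and Fn1, fibronectin (chromosome 1, 71585520 to 71653200), at 786 and 233 CPM. Fn1 was found in 69.1% of Marfan and 45.0% of control cells. Col8a1, a short-chain collagen of vessel walls, had a log2 ratio of 1.67, Cdh11, the mesenchymal cadherin-11, 1.55, and Cd34, a sialomucin of progenitor and stromal cells, 1.66. Of the endothelial cells, 44.5% held Fn1 and 43.3% Vcam1.

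Tnfrsf11b, Ace and Ankrd1 were among the same 15. Tnfrsf11b, the decoy receptor osteoprotegerin, stood at 137 and 40.9 CPM. Ace, the angiotensin-converting enzyme, stood at 287 and 91.1 CPM and was found in 46.0% and 26.2% of cells. Ankrd1, a stretch-responsive ankyrin repeat protein of muscle, had a log2 ratio of 1.97 [1.81, 2.13]. Sncg (gamma-synuclein), Prss23 (a secreted protease) and Tpm4 (a non-muscle tropomyosin) had smaller ratios of 1.10, 1.01 and 1.01. Their shares of control and Marfan cells were 28.9% and 56.5% for Sncg, 47.2% and 70.7% for Prss23, and 47.9% and 68.8% for Tpm4. Mgp, the calcification inhibitor matrix Gla protein, was singled out after its values were seen. It took 34183 CPM in Marfan and 14459 in control cells, log2 1.24, and was found in nearly every cell of both.

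Spp1, osteopontin (chromosome 5, 104435118 to 104441050), differed from these genes in how its UMIs were spread. Its level was 153 CPM in Marfan and 3.12 in control cells, log2 5.62 [5.26, 6.0], yet only 5.37% of Marfan and 0.417% of control cells held a UMI, against 9.67% of the lineage-negative endothelial cells. Had its 2775 Marfan UMIs been spread evenly, 45.9% of cells would have been expected to hold one. The 10 cells with the most Spp1 held 56.9% of its UMIs, and a single cell held 711. Without the 10 highest cells of each library the levels were 66.3 and 0.547 CPM. Among named genes the same held for Cxcl1, a neutrophil chemokine (68.9% of its UMIs in 10 cells, 1.24% of cells positive), Ccl7 (86.9%, 0.553%) and Gdf15, a stress-responsive cytokine (60.0%, 2.21%). Lcn2, lipocalin-2, had 208 Marfan UMIs, 51.4% of them in 10 cells, against 1 control UMI, for a log2 ratio of 7.86 [5.36, 13.17]. That ratio was only 1.25 in cells of 4000 to 8000 UMIs before thinning, and Lcn2 was found in 1.53% of Marfan cells against 33.0% of the endothelial cells. In contrast the 10 highest cells held 4.46% of Igfbp2 and 7.30% of Vcam1 UMIs.

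The leading ratios were compared across the depth that cells had before thinning. Cells were split into those of 4000 to 8000 UMIs (881 Marfan and 897 control cells), 8000 to 16000 (2408 and 3436) and 16000 or more (1234 and 707). Igfbp2 had log2 ratios of 3.25, 2.86 and 2.60 in these ranges, Wif1 -1.63, -1.68 and -1.76, and Kcnj15 -1.98, -2.18 and -1.90. These 3 genes kept their side at each depth. Tnfrsf11b grew with depth, from 1.08 to 1.74 and 2.18. Rgs5, a regulator of G protein signalling that marks pericytes, varied more: its ratio was -0.06, -1.10 and -2.82, so no single value describes it. Spp1 was higher in Marfan cells at each depth but also varied widely, with 5.41, 3.64 and 9.22. The last 2 of these lie outside its counting interval over all kept cells. All kept control cells together held only 63 Spp1 UMIs, so each of these ratios rests on few control counts.

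**Figure D2:**
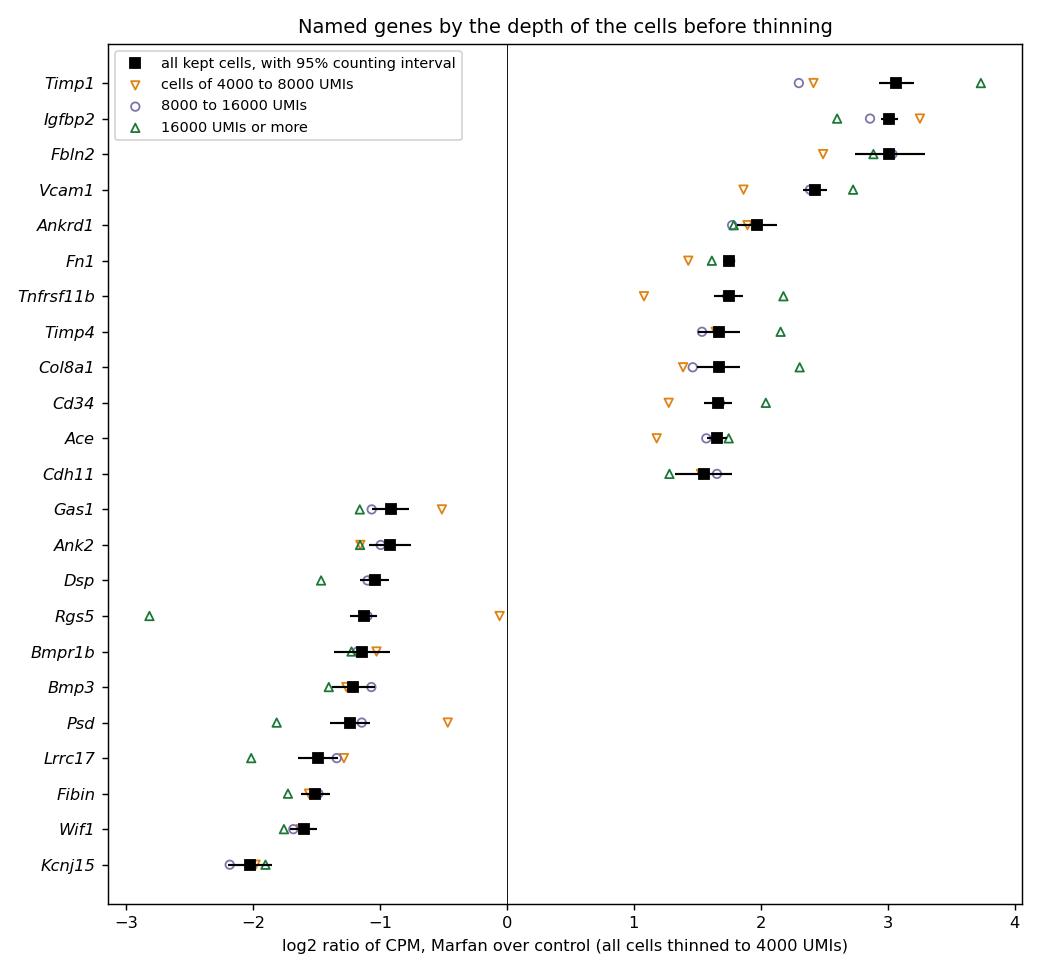
Log2 ratio of CPM, Marfan over control, for the genes described among the 15 highest and 15 lowest of the ranked genes. Squares give all kept cells with the 95% counting interval, and open symbols give cells split by their UMIs before thinning. Kcnj15 and Wif1 vary little with depth, and Rgs5 runs from -0.06 to -2.82.

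The genes of the modulated SMC list were higher as a group. The list of 17 genes had been drawn up with earlier results of these samples known, so its direction is no independent evidence. All 17 were measured. Of these, 15 passed 1.5-fold upwards and 0 downwards, and the median ratio of all 17 was 1.86 (log2). The remaining members, Lum (lumican) and Dcn (decorin), small proteoglycans typical of fibroblasts, had ratios of 0.19 and 0.04. The median was 1.39 in cells of 4000 to 8000 UMIs and 2.28 in cells from 16000 UMIs.

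These genes were spread unevenly over the Marfan cells, with a long upper tail. The UMIs of 12 genes of the list (leaving out Mgp, Lum, Dcn, Cd34 and C3, but with Igfbp2) summed to a median of 5 per thinned Marfan cell and 1 per control cell, and to 28.8 and 5 at the 90th percentile. No UMI of the 12 was found in 8.58% of Marfan and 33.4% of control cells. At least 5 of the 12 genes were detected together in 727 Marfan cells (16.1%) and in 50 control cells (0.992%). In cells of 4000 to 8000 UMIs these shares were 14.5% and 1.0%. Over 13 other settings the lowest pair was 9.57% and 0.172%, in cells thinned to 2000 UMIs, and the highest 37.6% and 5.95%, without thinning.

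The contractile apparatus showed a different kind of difference. Of 31 measured genes of the list, 0 were 1.5-fold higher and 0 lower, and their median was -0.02 on the log2 scale (all measured genes, -0.05). That median had either sign over other settings, from -0.06 to 0.03. The extremes were Mustn1, a small nuclear muscle protein, at 0.44 and Synpo2, the actin-binding synaptopodin-2, at -0.43. Acta2 (smooth muscle actin) stood at 0.19, Tagln (transgelin) at 0.04, Cnn1 (calponin) at 0.15 and Myl9 (the regulatory light chain) at -0.31. These are ratios of library means.

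Over single cells, however, the contractile genes were distributed much more widely in the Marfan library. UMIs of the 32 contractile genes other than Myh11 averaged 326.9 per cell in Marfan and 319.3 in control cells, with SDs over cells of 141 and 90.1. As a share of a cell's UMIs, the 10th percentile was 2.88% in Marfan and 5.2% in control cells, whereas the 90th percentile was 12.4% and 10.6%. Marfan cells thus outnumbered control cells, by share, at both ends: 20.5% of them (19.3 to 21.7) held fewer than 200 contractile UMIs, against 8.85% of control cells (8.08 to 9.67), and 33.8% (32.5 to 35.2) held 400 or more, against 16.8% (15.7 to 17.8). The middle range held 45.7% of Marfan and 74.4% of control cells. The limits of 200 and 400 were set after the distribution was seen and mark ranges, not cell types, with 282 Marfan and 314 control cells within 25 UMIs of the lower limit. The 10th percentile was lower and the 90th higher in the Marfan library in each of 13 other settings of depth, mitochondrial share, Myh11 and cell filters, of which the minimum of 1000 genes dropped no cell. Requiring 5 Myh11 UMIs brought the 10th percentiles closest, to 4.54% and 5.68%.

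**Figure D3:**
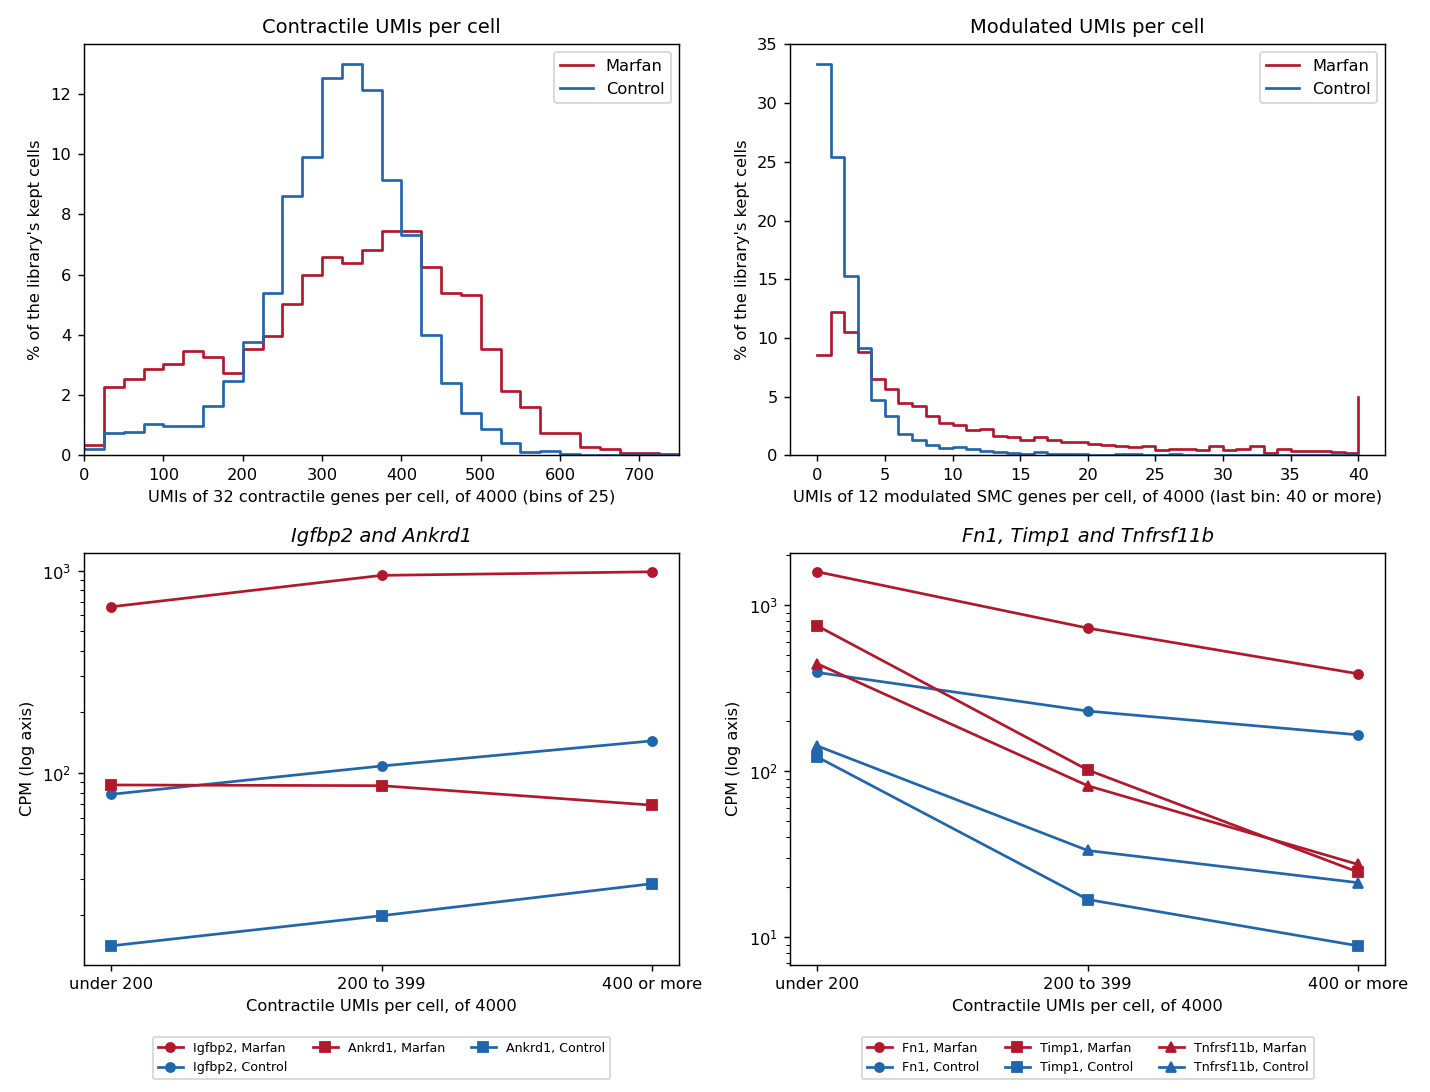
Top, percentage of each library's kept cells by UMIs of 32 contractile genes (left, bins of 25) and of 12 modulated SMC genes (right, last bin 40 or more) among the cell's 4000 UMIs. Bottom, CPM on a log axis in cells with under 200, 200 to under 400, and 400 or more contractile UMIs. The left panel shows Igfbp2 and Ankrd1, and the right panel Fn1, Timp1 and Tnfrsf11b, which were highest in the low range. Igfbp2 stood at 985 CPM in Marfan cells of the highest range and 144 in control cells of that range.

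The 925 Marfan cells with fewer than 200 contractile UMIs had the highest modulated sum, and the highest Timp1, Vcam1, Fn1 and Spp1 of the 3 ranges. Their median modulated sum was 15 UMIs, against 5 and 3 in the middle and high ranges, and 48.8% of them had at least 5 of the 12 genes, against 11.9% and 2.02%. Timp1 stood at 749, 102 and 24.7 CPM from the low to the high range, Vcam1 at 992, 150.2 and 33.6, Fn1 at 1584, 726 and 385, and Spp1 at 692, 21.4 and 5.88. Mgp reached 88556 CPM in the low range and 8738 in the high range. The 446 control cells of the low range had a median modulated sum of 3 UMIs, and 6.05% of them had at least 5 of the genes.

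The low range also held more RNA of other stromal types, and its makeup differed between libraries. Fibroblast markers summed to 2432 CPM in the Marfan and 4437 in the control low range, against 143 and 185 in the high range, with Dcn at 1545 and 2911 and Lum at 615 and 1110 in the low range. Pericyte markers summed to 288 and 521 CPM and valve interstitial or chondrocyte markers to 761 and 730 there. Macrophage or monocyte markers summed to 78.6 and 95.9. Both libraries kept the reporter in the low range, with TDT at 436 and 430 CPM. In another setting, cells with a UMI of Pecam1, Cdh5, Ptprc, Lyz2, Pdgfra, Hba-a1 or Hbb-bs before thinning were left out. These are meant by cells with markers of other types, here and below. Dcn, Lum and the pericyte and valve interstitial or chondrocyte markers were not among those genes. Without these cells the 10th percentile of the contractile share was 3.85% in Marfan and 5.67% in control cells. The part of other cell types in the remaining difference was not tested.

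Igfbp2, itself among the 12 summed genes with 16307 Marfan UMIs, and Ankrd1, which is not, did not follow that course. Igfbp2 stood at 662, 946 and 985 CPM from the low to the high contractile range of Marfan cells, and at 78.5, 108.3 and 144 CPM in control cells. Ankrd1 stood at 87.3, 86.6 and 69.4 CPM in Marfan and 14, 19.7 and 28.4 in control cells. Both genes were higher in Marfan cells of every contractile range, the most contractile included.

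Within each library, modulated and contractile UMIs ran in opposite directions. Spearman's rho over cells was -0.33 in Marfan and -0.16 in control cells; both sums come from the same 4000 UMIs, so a rise of one leaves less room for the other, and the modulated sum also had a rho of 0.25 and 0.11 with the UMIs before thinning. Split into quintiles by modulated UMIs, Marfan cells had 382, 353, 349, 316 and 234 contractile UMIs on average, and control cells 335, 330, 328, 317 and 286. The lowest 4 quintiles of Marfan cells had more Acta2 than any quintile of control cells (29189, 26718, 26724 and 24558 CPM, against at most 22922), and the highest quintile had less than any (17491, against at least 19420). The quintiles of the libraries hold different ranges of modulated UMIs, from 0 to 1 in the lowest Marfan quintile to 16 to 766 in the highest. In control cells they ran from 0 in the lowest to 3 to 55 in the highest. As 33.4% of control cells had 0, the split between control quintiles 1 and 2, counted from the lowest, runs through ties.

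The lowest ratios included those of Kcnj15, Wif1, Fibin, Lrrc17 and Psd. Kcnj15, an inward rectifier potassium channel (chromosome 16, 95257558 to 95300260), had 18.0 CPM in Marfan cells against 73.2 in control cells, log2 -2.02 [-2.20, -1.85], and was found in 5.97% and 22.3% of cells. Wif1, a secreted Wnt inhibitor (chromosome 10, 121033960 to 121100650), stood at 53.8 and 163 CPM and in 15.4% and 35.1% of cells. In barcodes under 1000 UMIs, Kcnj15 stood at 12.6 CPM in the Marfan and 56.9 in the control library, and Wif1 at 56.8 and 173. Fibin, a secreted fin bud initiation factor homologue, had a log2 ratio of -1.51, Lrrc17, a secreted leucine-rich repeat protein, -1.49, and Psd, an exchange factor for the small GTPase Arf6, -1.23. Psd was less stable than the others, at -0.47 in cells of 4000 to 8000 UMIs before thinning, which is within 1.5-fold.

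Bmp3, Bmpr1b, Dsp, Ank2 and Gas1 were also among the 15 lowest. Bmp3, a BMP family ligand, stood at 21.9 and 50.8 CPM and Bmpr1b, a type I BMP receptor, at 13.4 and 29.6. Dsp, the junction protein desmoplakin, stood at 47.0 and 96.8 CPM, and Ank2, the membrane adaptor ankyrin-B, at 24.4 and 46.2. Gas1, a hedgehog co-receptor, had a ratio of -0.91, with -0.51 in cells of 4000 to 8000 UMIs, and Krt18, a simple keratin named from the cytoskeleton list, -1.62. By share of cells, Mfap4, a microfibril-associated glycoprotein, was in 67.2% of control and 45.0% of Marfan cells, and Gstm1, a glutathione transferase, in 93.4% and 78.8%. The matrix genes Sparcl1 (67.6% and 51.6%), Ecm2 (54.8% and 39.4%) and Prelp (61.0% and 46.5%) and the retinol carrier gene Rbp4 (59.6% and 45.8%) were also in fewer Marfan cells.

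The lower genes differed in how they varied with modulation. Psd stood at 50.6 CPM in the lowest modulated quintile of Marfan cells and 3.60 in the highest, and Sparcl1 at 541 and 134, Bmp3 at 34.0 and 7.74 and Rgs5 at 82.9 and 13.3. The lowest and highest control quintiles had 80.6 and 28.5 for Psd, and 597 and 454 for Sparcl1. For Bmp3 they had 54.3 and 38.9, and for Rgs5 111 and 113. Mfap4, in contrast, stood between 277 and 316 CPM in all 5 Marfan quintiles and between 499 and 582 in all 5 control quintiles. Dsp stood between 40.6 and 50.9 CPM in Marfan and between 88.3 and 109 in control quintiles, and Kcnj15 between 14.4 and 27.3 and between 66.5 and 76.9. For Mfap4, Dsp, Kcnj15, Wif1, Gas1 and Lrrc17, as for Bmp3 and Rgs5, the Marfan and control quintiles did not overlap, and for Psd and Sparcl1 they did. None of these genes was used to form the quintiles. They were chosen for a low ratio or a lower share of Marfan cells, however, and that choice favours separate quintiles. How many of all measured genes have separate quintiles was not tested. The quintiles of the libraries also differ in modulated range and in depth before thinning. For Rgs5 the separation does not hold across depth, as its ratio was -0.06 in the shallowest depth range.

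**Figure D4:**
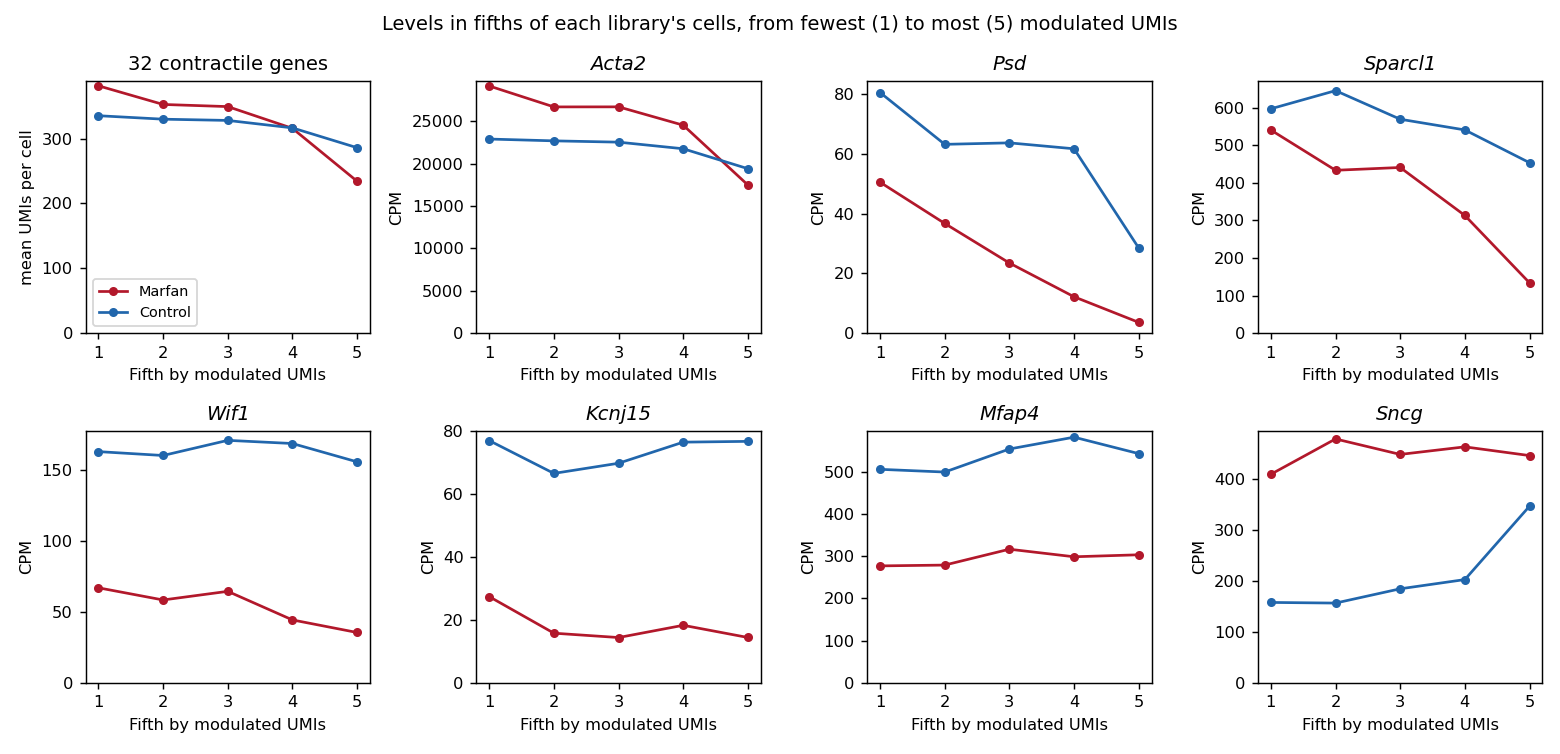
Mean UMIs of 32 contractile genes per cell (first panel) and CPM of 7 genes in quintiles of each library's cells, ordered by their modulated UMIs from fewest (1) to most (5), Marfan in red and control in blue. Contractile UMIs and Acta2 cross, and Wif1, Kcnj15 and Mfap4 stay apart in every quintile. Psd and Sparcl1 are lower in the highest than in the lowest quintile of both libraries.

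Cells of the libraries were also compared in bins of modulated UMIs. Among cells without any modulated UMI (388 Marfan and 1682 control cells), log2 ratios were -1.46 for Wif1, -1.02 for Kcnj15, -0.87 for Mfap4 and -0.74 for Dsp, but -0.07 for Psd and -0.04 for Sparcl1. Among those with 11 or more (1373 and 166 cells) they were -1.89, -2.05, -0.94 and -1.30, and -0.78 for Psd and -0.85 for Sparcl1. That top bin has no upper limit and is not matched: its Marfan cells had Timp1 at 601 CPM and Igfbp2 at 2362, against 140.1 and 1464 in its control cells. Psd lay between -0.67 and -0.65 in the bins between. Of the higher genes outside the 12, Sncg had a ratio of 1.54 in cells without a modulated UMI and 0.07 in those with 11 or more. Hspa5, the endoplasmic reticulum chaperone BiP, had 0.63 and 0.44. Contractile UMIs averaged 385 in Marfan and 334 in control cells at 0 modulated UMIs, and 256 and 246 at 11 or more.

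Gene lists give the same comparison by function, each read against 3.6% of genes higher, 2.77% lower and a median of -0.05 over all measured genes. Among extracellular matrix lists, 8 of 21 measured matricellular genes were higher and 2 lower, with a median of 0.43. Besides Spp1 and Fn1 these included Thbs1, thrombospondin-1 (1.86), Tnc, tenascin-C (1.55), and the connective tissue growth factor Ccn2 (0.67). Of 29 collagens and collagen enzymes, 5 were higher and 1 lower (median 0.29), with Pcolce, an enhancer of procollagen cleavage, at 1.34 and Pcolce2 at -0.73. The fibrillar collagen genes Col1a1 and Col3a1 had ratios of 0.51 and 0.03.

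**Figure D5:**
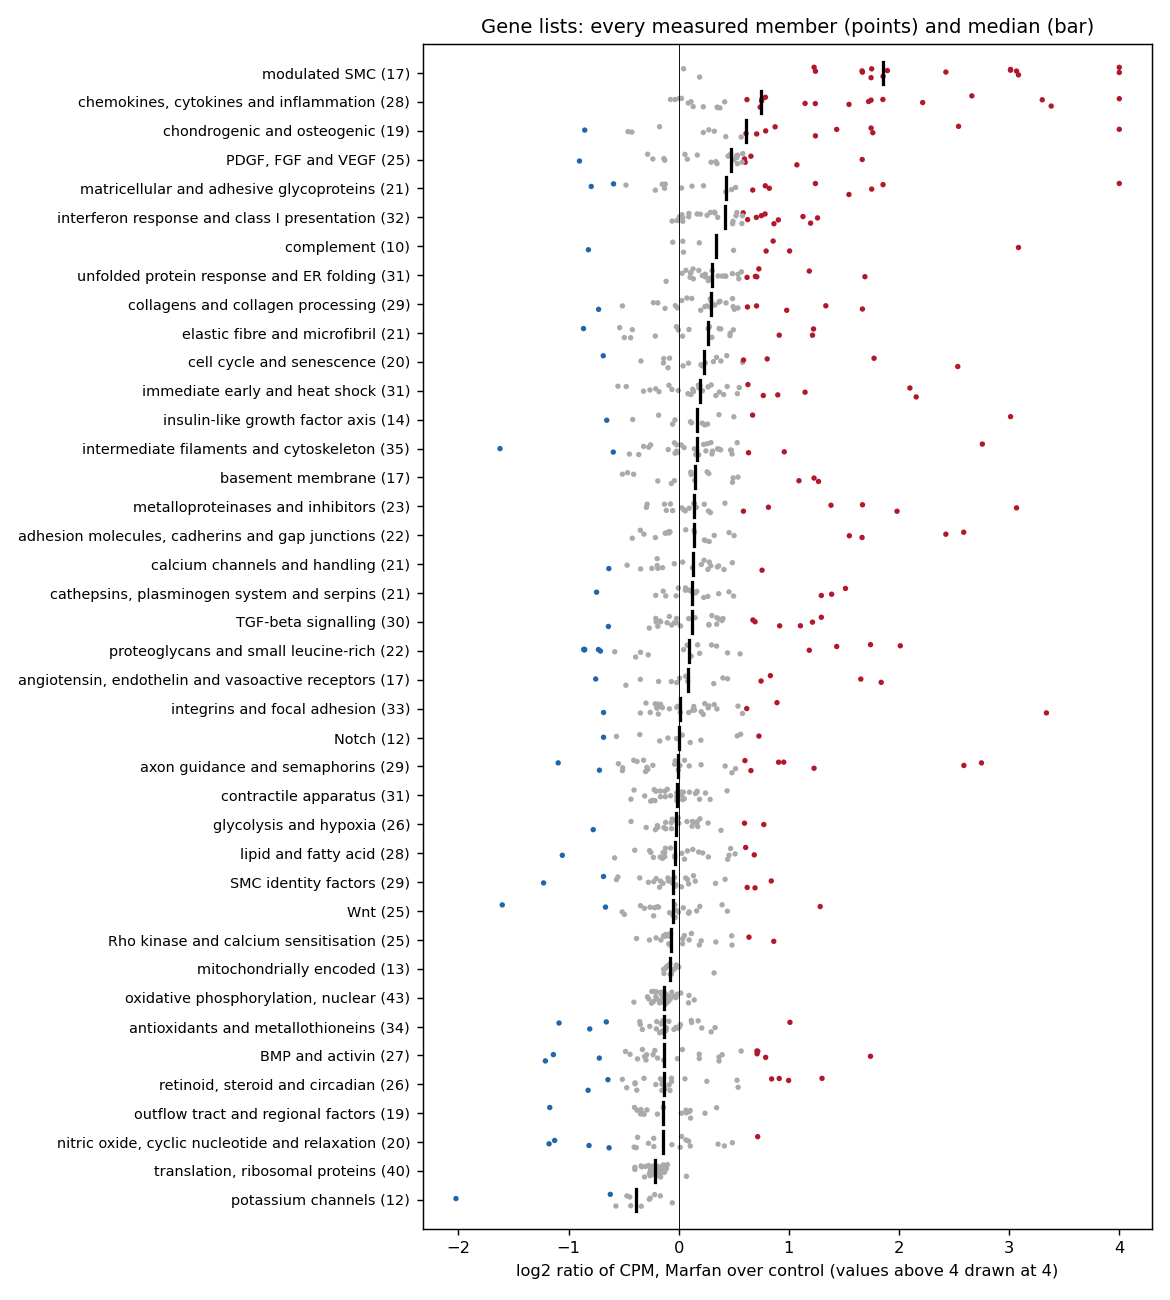
Log2 ratio of CPM, Marfan over control, for every measured member (points) of 40 gene lists, ordered by their median (black bar), with the number measured in parentheses. Red points are at least 1.5-fold higher and blue points at least 1.5-fold lower. The modulated SMC list has the highest median (1.86) and the potassium channel list the lowest (-0.39).

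Elastic fibre genes did not share 1 direction. Of 21 measured, 3 were higher and 1 lower, with a median of 0.27: the higher ones were Fbln7 (fibulin-7, 1.22), Ltbp2 (a latent TGF-beta binding protein, 1.21) and the crosslinking enzyme Loxl2 (0.91), and the lower one was Mfap4 (-0.86). Eln, elastin, stood at 874 and 720 CPM, a ratio of 0.28. Proteoglycans split further, with 4 of 22 higher and 5 lower and a median of 0.09. Higher were Prg4 (lubricin, 2.01), Podn (podocan, 1.74), the cartilage proteoglycan Acan (1.43) and Fmod (fibromodulin, 1.19). Prg4 was rare, in 1.59% of Marfan and 0.714% of control cells, with 49.6% of its Marfan UMIs in 10 cells, and its ratio was 0.58 in cells of 4000 to 8000 UMIs, within 1.5-fold. Lower were Omd, Aspn and Ogn, the related osteomodulin, asporin and osteoglycin, at -0.86, -0.86 and -0.85, with Ecm2 at -0.73 and Gpc3 at -0.71.

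Among proteases and their inhibitors, 6 of 23 metalloproteinase and TIMP genes were higher and 0 lower, with a median of 0.14. Mmp3, stromelysin-1, stood at 112 and 28.5 CPM but in only 8.49% and 2.72% of cells, Mmp2, gelatinase A, at 41.1 and 15.8, and Timp4 at 65.3 and 20.5. Of 21 cathepsin, plasminogen and serpin genes 3 were higher, among them Serpina3n (1.51) and Plaur, the urokinase receptor (1.39). F3, tissue factor, was the 1 lower gene (-0.75, and -0.44 in cells of 4000 to 8000 UMIs).

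The promoters of Igfbp2 and Mmp3 are shown because they hold the consensus of AP-1, a factor known to act on Mmp3. They were picked after the motif search, from named genes with a match. Other named genes with a match included Plaur and Prss23, which were higher in Marfan cells, and F3 and Rbp4, which were lower. The sequences run from 250 bases before to 50 after an annotated start, from RefSeq on GRCm38.p6, in lower case with the motif TGANTCA in capitals, which reads the same on both strands. Igfbp2 is at chr1:72825137-72825436 and Mmp3 at chr9:7445572-7445871, both on the plus strand.
Igfbp2: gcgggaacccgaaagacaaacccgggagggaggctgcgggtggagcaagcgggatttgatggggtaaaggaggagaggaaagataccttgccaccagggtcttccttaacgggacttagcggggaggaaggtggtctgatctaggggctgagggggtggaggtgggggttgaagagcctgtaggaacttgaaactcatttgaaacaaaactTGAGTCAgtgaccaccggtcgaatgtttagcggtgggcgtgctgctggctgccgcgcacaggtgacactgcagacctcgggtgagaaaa
Mmp3: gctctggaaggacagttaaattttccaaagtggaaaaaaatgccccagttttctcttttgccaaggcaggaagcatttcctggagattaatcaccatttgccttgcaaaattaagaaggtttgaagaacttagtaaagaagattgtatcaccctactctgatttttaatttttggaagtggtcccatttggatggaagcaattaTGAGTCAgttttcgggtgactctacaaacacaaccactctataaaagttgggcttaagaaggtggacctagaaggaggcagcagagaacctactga
RefSeq lists another start for Igfbp2, whose sequence has no match. Matched by gene symbol, the RefSeq promoters used covered 246 of the 341 higher genes, 202 of the 262 lower genes and 7624 of all measured genes. The promoters of a whole chromosome were not used, so a gene without one here can still have one in RefSeq. A TGANTCA match was present for 35 (14.2%) of the higher, 10 (4.95%) of the lower and 439 (5.76%) of the measured genes. Over all 27025 genes with a promoter used the share was 8.97%. Counted by promoter, a match was in 11.8% of those of higher genes and 7.81% of all 32851 used. For the TEAD motif ACATTCC, also read on both strands, the shares of higher, lower, measured and all genes were 5.69%, 1.98%, 3.20% and 4.47%. For the CArG box they were 2.85%, 1.98%, 1.61% and 1.81%. A match is a description of letters, not a bound site.

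In growth factor pathways, 6 of 30 TGF-beta genes were higher and 1 lower, with a median of 0.12. The higher ones included the ligands Tgfb1 (0.69) and Tgfb3 (0.67), the latent TGF-beta anchor Lrrc32 (1.10), Ltbp2 and the co-receptor Cd109 (0.92). The receptors Tgfbr1 and Tgfbr2 had ratios of -0.06 and -0.09, and the inhibitor Smad6 was lower (-0.64). Of 27 BMP and activin genes, 5 were higher and 3 lower (median -0.14), with Gdf10, a BMP3-like ligand, at 1.74 and Bmp4 at 0.79 against Bmp3 and Bmpr1b below. Of 25 PDGF, FGF and VEGF genes, 5 were higher and 1 lower (median 0.47), including the ligands Pdgfb (1.67) and Pdgfc (1.07). In the insulin-like growth factor list Igfbp2 and Igfbp3 were higher of 14 and Htra3, a secreted serine protease, was lower (-0.65). Igfbp3 had a ratio of 0.67 with 60.0% of its Marfan UMIs in 10 cells, and over 15 other settings it ran from -0.23 to 1.06, so its call did not hold.

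Inflammatory genes were often higher, most of them at low levels. Of 28 measured chemokine, cytokine and inflammation genes, 16 were higher and 0 lower, with a median of 0.75, and the list summed to 1824 CPM in Marfan and 1240 in control cells. The median was 0.35 with a floor of 20 CPM and 0.45 without cells bearing markers of other types. Ptgs1, cyclooxygenase-1, stood at 8.79 and 1.39 CPM, Ccl2 had a ratio of 2.22 and Ptgs2, the inducible cyclooxygenase, 1.72. Of 32 interferon response and class I presentation genes, 10 were higher and 0 lower (median 0.42), with Ifi47, an interferon-induced GTPase, at 7.13 and 2.98 CPM. The median of the same genes was 0.18 in cells of 4000 to 8000 UMIs and 0.20 in those from 16000, and without cells bearing markers of other types the ratio of Ifi47 went from 1.26 to 0.45, within 1.5-fold. Ifitm1 of that list rested on few cells, with 70.1% of Marfan UMIs in 10 cells. Of 10 complement genes 4 were higher and 1 lower, Cd55, a complement inhibitor, at -0.82. The higher ones were led by C3 at 24.0 and 2.83 CPM. C1qa, counted among the 4, a macrophage gene with 89.9% of its UMIs in 10 Marfan cells, turned lower in 4 of 15 other settings. Macrophage or monocyte markers at 19.3 and 12.2 CPM moved with these lists, and their part was not tested.

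Genes of protein folding in the endoplasmic reticulum lay mostly above 0. Of 31 measured, 30 had a ratio above 0, 6 were at least 1.5-fold higher and 0 lower, and the median was 0.30. Hspa5 had 851 CPM in Marfan cells against 521 in control cells and was found in 91.8% and 81.1% of cells. Sdf2l1, a BiP co-factor, had a ratio of 1.69, Fkbp11, a prolyl isomerase, 1.19 (0.45 in cells of 4000 to 8000 UMIs), and Pdia6, a disulfide isomerase, 0.73. The stress regulators Atf4, Ddit3 and Xbp1 had ratios of 0.21, 0.24 and 0.30. The list's median was 0.27 in cells of 4000 to 8000 UMIs and 0.29 in those from 16000. Genes of translation and oxidative phosphorylation lay on the other side, each by a small amount. Of 40 translation and ribosomal protein genes 1 was above 0 (median -0.22), and of 43 nuclear oxidative phosphorylation genes 4 were (median -0.13), with 0 past 1.5-fold in either list. Eef1a1, the translation elongation factor, stood at 4036 and 5117 CPM.

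Potassium channel genes lay below 0 as a list. All 12 measured potassium channel genes had a ratio below 0, with a median of -0.39, and 2 passed 1.5-fold. Besides Kcnj15, the subunit gene Kcnab1 had a ratio of -0.62 (within 1.5-fold in 5 of 15 other settings), Kcnma1, the large-conductance calcium-activated channel, -0.57, and Abcc9, the sulfonylurea receptor of the vascular KATP channel, -0.44. The list median ranged from -0.51 to -0.26 over the other settings. In the list of nitric oxide, cyclic nucleotide and relaxation genes, 4 of 20 were lower and 1 higher (median -0.14), among them the G protein regulator Rgs2 at 6.91 and 15.6 CPM and the phosphodiesterase Pde4b at 32.9 and 57.8.

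Cartilage and bone genes were higher in part. Of 19 measured, 10 were higher and 1 lower, with a median of 0.61. Besides Mgp, Spp1, Tnfrsf11b and Acan they included Cytl1, a cytokine-like protein of cartilage, at 107 and 31.5 CPM. Cytl1 stood at 455 CPM in the Marfan low contractile range and 4.57 in the high range, whereas Acan was spread over all 3 ranges at 35.9, 65.7 and 44.1 CPM. Acan was detected in 16.3% of Marfan and 6.35% of control cells and in 0 of the 672 endothelial cells of the lineage-negative libraries, which allows a share of up to 0.446%. Cytl1 was detected in 8.45% and 1.87%, and in 44.5% of those endothelial cells.

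Klf4, a transcription factor linked to SMC modulation, had 46.1 CPM in Marfan cells against 28.5 in control cells, and in 13.0% and 7.76% of cells. In both libraries it was highest in the low contractile range, at 87.8 CPM in Marfan and 105 in control cells. In bins of modulated UMIs its log2 ratio was 0.99 at 0, 0.51 at 1 to 2 and 0.69 at 3 to 5, but -1.01 at 6 to 10 and -0.54 at 11 or more. The last 2 bins held only 275 and 166 control cells. Over all control cells, 10 cells held 17.7% of the Klf4 UMIs, and 1 cell held 41. The part of such cells in the change of sign was not tested. Without cells bearing markers of other types the ratio over all cells went from 0.69 to 0.48, within 1.5-fold. Of 29 SMC identity factors, 3 were higher and 2 lower, with a median of -0.05. Klf2, a shear-responsive factor, had a ratio of 0.84, Heyl, a Notch target, -0.68 and the mesodermal factor Foxf1 -1.23. Among 19 outflow tract and regional factors, 0 were higher and 1 was lower, Isl1, a progenitor factor, at 3.04 and 6.85 CPM, with the GATA factors Gata4 and Gata6 at -0.35 and -0.40.

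The lineage-positive library labelled Marfan with floxed Klf4 lay nearer the Marfan than the control library for Igfbp2, Fn1, Timp1, Spp1, Kcnj15 and Wif1. It lay nearer the control library for Cytl1 (56.2 CPM), Serpina3n (5.75) and Lcn2 (0.894), and at the upper contractile end. How many genes lay nearer each library was not counted. By the same rule this library gave 5870 cells. Igfbp2 stood at 898 CPM there, Fn1 at 763, Timp1 at 143, Spp1 at 90.1, Kcnj15 at 21.4 and Wif1 at 54.4. Mfap4, at 400.3 CPM, lay roughly midway between the Marfan and control libraries. At least 5 of the 12 modulated genes were found in 11.4% of its cells, and its contractile UMIs averaged 298 with an SD over cells of 124. Their 10th percentile was 106 UMIs, near the 115.2 of Marfan cells and below the 208 of control cells. The 90th percentile was 444, nearer to the 423 of control than to the 496 of Marfan cells. Prg4 and C3 stood lower there, at 1.70 and 7.07 CPM, against 12.6 and 24.0 in the Marfan library. Klf4 itself stood at 109 CPM in the library labelled Klf4-floxed, above both others; reads counted at the 3' end do not show whether a transcript carries the deleted part.

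The cells just outside and just inside the limits are given here without thinning. Marfan barcodes of 3000 to under 4000 UMIs (386) had 3111 CPM of the 12 modulated genes and 82568 of the contractile genes, and those of 4000 to under 5000 had 2547 and 75013. Control barcodes had 511 and 65724 below the limit (129) and 540 and 67063 above it (178). The Myh11 limit ran through a group of low contractile content: 113 Marfan barcodes without Myh11 had 12823 CPM of contractile genes, 6440 of modulated genes and 7037 of fibroblast markers, and 143 with 1 UMI had 15850, 9247 and 5546. Spp1 stood at 1518 and 3467 CPM in these 2 sets of Marfan barcodes. In the control library the 52 barcodes without Myh11 had 3379 CPM of modulated genes and 11434 of fibroblast markers, and the 57 with 1 UMI had 1964 and 10373.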

How the data were processed

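Raw UMI counts per gene and barcode were deposited by the authors for each library, made with Cell Ranger 6.1.2 per the file headers, on mm10 per the submitters' processing notes. How barcodes were called is not given in the sources used here. Libraries were grouped by title. The members and lists were chosen with earlier results of these data known.

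Limits were applied to raw counts. Cells were thinned without replacement to 4000 UMIs (seed 1) and summed per library. Genes with at least 5 CPM in either library were measured, and calls were at least 1.5-fold. Named genes were the 15 largest and 15 smallest ratios at 20 CPM and 10% of cells, the 10 largest share differences each way, up to 4 members per list, and Myh11, Fbn1, Klf4 and TDT. The rankings by ratio and share left out mitochondrial, ribosomal protein, Mrp, haemoglobin and immunoglobulin genes. Names of Gm plus digits or ending in Rik were left out too. So were markers of cell types other than SMC, fibroblast and pericyte, among them Acan at a ratio of 1.43. Chosen after their values were seen were Abcc9, Acta2, Aspn, Atf4, Ccl2, Ccn2, Cnn1, Col1a1, Col3a1, Dcn, Ddit3, Eln, Gpc3, Lum, Mgp, Ogn, Omd, Ptgs2, Smad6, Tagln, Tgfb1, Tgfb3, Tgfbr1, Tgfbr2 and Xbp1. Not every named gene is described, and some items are not reported here. Doublets were kept: the automatic threshold of Scrublet (scanpy 1.11.5) marked 0 of 12100 Marfan and 0 of 5432 control barcodes and so had not worked. Removing the 1171 and 236 highest scores was 1 of 18 alternatives. Thinning and calls were tested on simulated data (numpy 2.4.6, scipy 1.17.1).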

Additional observations from a re-analysis of the deposited data

How the results depend on the processing

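No paired analysis was possible because each group was 1 library. The counts of genes at least 1.5-fold higher and lower, 341 and 262, became 525 and 635 in cells of 4000 to 8000 UMIs, 160 and 83 with a floor of 20 CPM, 718 and 577 with a floor of 1 CPM, and 144 and 50 for 2-fold calls. By construction a floor or fold changes which genes qualify. For the other moves the cause was not tested. The genes detected in at least 10 points more and fewer cells, 50 and 45, became 86 and 92 in cells thinned to 8000 UMIs and 143 and 72 without thinning, and those in fewer cells became 19 in cells thinned to 2000. With mitochondrial and ribosomal genes out of the total the counts by ratio were 338 and 372, and with median-of-ratios scaling 402 and 211. The modulated median was 1.41 in cells of 4000 to 8000 UMIs with the genes measured anew.

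The ratio of C1qa turned from 1.01 to -0.22 in cells thinned to 2000, -0.82 thinned to 8000, -0.11 without thinning and -0.85 with 5 Myh11 UMIs required. Igfbp3 turned to -0.15 in cells thinned to 2000 and -0.23 without cells bearing markers of other types, and Bcar1 to -0.080 at a mitochondrial limit of 5%.

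The Marfan minus control difference in contractile share of UMIs, chosen after the data were seen, was -2.32 points at the 10th percentile, 0.36 at the median and 1.82 at the 90th. At the 10th it became -1.7 thinned to 2000, -2.70 thinned to 8000, -1.25 in cells of 4000 to 8000, -2.6 with no Myh11 requirement, -1.82 with a Myh11 UMI left after thinning, -1.14 with 5 Myh11 UMIs and -1.82 without cells bearing other markers. Under the last 3 of these the median became 0.62, 0.8 and 0.75. At the 90th it became 1.55 thinned to 2000 and in cells of 4000 to 8000.

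In cells of 4000 to 8000 UMIs the ratios of Bmp4 (0.54), Cdkn1a (0.54), Cdkn1c (-0.47), Ecm2 (-0.53), Heyl (-0.45), Pde4b (-0.55), Pdia6 (0.50) and Sparcl1 (-0.54) came within 1.5-fold, as did Gpx3 (0.55) in cells thinned to 2000 and Rbp4 (-0.56) at a mitochondrial limit of 5%.

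Of 2655 values of named genes under the alternatives, 2174 stayed within their counting interval, 474 moved and 7 reversed. With 1 library per group, no spread between animals is known.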

Other observations

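Genes of axon guidance had ratios on both sides, many at low levels. Of 29 measured, 7 were higher and 2 lower, with a median of 0.00. Gfra2, a receptor for neurturin, was at 10.3 CPM in Marfan and 1.54 in control cells, and was found in 3.34% of Marfan and 0.476% of control cells. Ntn4, netrin-4, a basement membrane protein, had a log2 ratio of 1.23 and was found in 10.8% of Marfan and 4.90% of control cells. The guidance receptor gene Epha4 was lower at -1.09, but its ratio was as small as -0.28 over 15 other settings, within 1.5-fold.

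Among cell cycle and senescence genes, 4 of 20 were higher and 1 lower, with a median of 0.23. Ccnd1, cyclin D1, was at 16.1 CPM in Marfan and 2.78 in control cells. Of the cyclin-dependent kinase inhibitors, Cdkn1a, known as p21, was found in 25.1% of Marfan and 14.3% of control cells, and Cdkn1c, known as p57, in 12.8% and 19.4%. Among 34 antioxidant and metallothionein genes, 1 was higher and 3 lower (median -0.14): Gpx3, an extracellular glutathione peroxidase, had a ratio of 1.01, Gsta4 -1.09, Gstm1 -0.81 and Nqo1, a quinone reductase, -0.66, which was -0.30 in cells of 4000 to 8000 UMIs. In the retinoid, steroid and circadian list, 4 of 26 were higher and 2 lower, with the retinal dehydrogenase gene Aldh1a1 at 32.4 and 13.1 CPM and the glucocorticoid-responsive genes Fkbp5 at 14.8 and 7.39 and Tsc22d3 at 24.2 and 13.5.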
